A study of Homo sapiens with 12 samples.

Results

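The regions described here are the longest 3′ end intervals of protein-coding genes in a SLAM-seq experiment on 22Rv1, an established human prostate cancer cell line. They are the coding RefSeq intervals with a length of 5000 to 20000 bases, with 1 interval kept per gene, the one with most reads over the 12 libraries. There were 1117 such intervals, called long intervals below, among 18651 coding genes. They came from 1223 rows of that length among 23086 coding rows and 29255 rows in all. Coding genes whose kept interval was under 500 bases, 6714 in number, served as the short reference. Another 143 genes with a row under 500 bases were long-interval genes and were counted there alone.

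All 12 libraries came from cells edited so that their SF3B1, a subunit of the splicing machinery, carries C1111S, so every comparison was made in that background and none against unedited cells. The control group received DMSO at 0.1% v/v. The other groups received WX-02-23 at 20 µM, WX-02-43 at 20 µM or PladB (pladienolide B) at 10 nM, each for 3 h, and all 4 groups then received 4-thiouridine at 100 µM for 1 h. Each group had 3 numbered libraries. Whether these were separate cultures is not given in the labels, and the p-values therefore measure the spread between these libraries, which may be technical. Numbers of cells and RNA per cell could not be told apart in these bulk libraries.

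A 3′ UTR is the stretch of a messenger RNA after its stop codon, where RNA-binding proteins and microRNAs bind and where cleavage and addition of the poly(A) tail end the transcript. Long 3′ UTRs hold many such sites, and genes for transcription factors, kinases and ubiquitin ligases often have them. In SLAM-seq, RNA made in the presence of 4-thiouridine is recognised by C in the read where the genome has T. Pladienolide B binds the SF3B complex and blocks its role in branch site recognition, a step at which introns are removed. A read with at least 1 such conversion is called a T>C read, and the labelled share is the percent of an interval's reads that are T>C reads. Cells that received no 4-thiouridine were not analysed here, and how many T>C reads come from errors or variants is therefore unknown.

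The libraries read the ends of poly(A) tailed RNA, and the last bases of an interval show the signal at which the annotated RNA ends. The last 30 bases of 7 continuous long intervals are shown because the results below turn on these genes. The first 3 rose in T>C reads after PladB, and the other 4 fell. Sequences run 5′ to 3′, capitals mark the poly(A) signal AATAAA or its variant ATTAAA, and coordinates are hg19.
NUCKS1, chr1:205681947-205681976, minus strand: tAATAAAagataatgtttatactcacagaa
GTF3C4, chr9:135570313-135570342, plus strand: ttcaaAATAAAtaacataattatttgtata
TMEM59, chr1:54492354-54492383, minus strand: aaaacttggatcatctgcATTAAAaaataa
RNF24, chr20:3907956-3907985, minus strand: cgtgtaAATAAAagcaaattttgaaaaata
SRRM4, chr12:119600827-119600856, plus strand: aATTAAAgttcccatggtatggtgttctca
PIK3CA, chr3:178957852-178957881, plus strand: gctgtttATTAAAaaaaaaaagaaaaatta
TET3, chr2:74335274-74335303, plus strand: taaattttatatttattttttgcactcaaa
The sequence of TET3 held neither signal in this window. Letters come from the GENCODE release 29 transcript whose 3′ UTR had the length and the number of T that the deposited row gives, and the coordinates come from the deposited row.

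Among the 365 long intervals with a sequence matched in this way, AATAAA stood in the last 50 bases of 74.5%, and ATTAAA without AATAAA in a further 15.1%. The corresponding shares were 63.0% and 13.3% of 2923 short reference intervals, and 67.0% and 14.3% of all 7882 coding intervals with a sequence. All motifs were searched on the RNA's own strand only. Away from that last window, AATAAA occurred in 95.6% of the long intervals, with a median of 5 copies, and in 11.6% of the short ones. Per kilobase the difference was smaller, at 0.83 copies in long intervals, 0.542 in short ones and 0.784 over all. Runs of 10 or more A, on which an oligo(dT) primer can also anneal, were present in 65.2% of long, 1.09% of short and 14.3% of all intervals, or 0.1709, 0.0429 and 0.1377 per kilobase. ATTTA, the core of AU-rich elements, had a median of 15 copies in long intervals and 0 in short ones, or 2.405 and 1.98 per kilobase. TGTANATA, the motif of PUM proteins, was found in 69.3% of long, 5.82% of short and 22.5% of all intervals, but per kilobase it was less frequent in long ones, at 0.2224, 0.2585 and 0.2385. The matches describe letters in the sequence and not sites in use.

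The label of a 3′ UTR interval held only in part. The deposited length is the distance from stop codon to end on the genome, introns included. Of 807 long intervals that could be matched to a GENCODE 3′ UTR by length, 580 were continuous and 227 spanned introns. The share with introns was 28.1% of matched long intervals, 0.928% of matched short ones and 5.87% over all matched coding genes. Among long intervals it was 17.9% below 7000 bases, 31.3% from 7000 to below 10000 and 69.7% from 10000 up. In the intron-spanning ones a median of 21.26% of the bases were exonic. The remaining 310 had no match and are unassigned in this respect. The longest, FOXO3 on chromosome 6 from 108986059 to 109005971, covers 19913 bases of which 25.01% are exonic.

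The limits of length divided neighbours of nearly equal size. PLXNA2 (5001 bases), KCTD12 (5002) and SLC2A13 (5005) were just inside the lower limit, and NFYA (4997), PGS1 (4994) and GSPT1 (4991) just outside. DTD1 (19665), MDM4 (19832) and FOXO3 were the last inside the upper limit, and ZHX2 (20491), HRK (20612) and CHEK1 (20936) the first outside. Across the lower limit, all reads of PLXNA2 were 24.9, 16.8 and 16.8 CPM in DMSO and 8.25, 8.50 and 10.3 with PladB. Those of NFYA were 43.5, 37.2 and 36.7 in DMSO and 80.03, 73.2 and 68.4 with PladB. These values are those of single genes and do not describe either side of the limit. The median long interval had 6562 bases and 30.69% T over the class, against 235 bases and 28.04% T in the reference. Long-interval genes had a median of 11 exons, and reference genes 8. On the same strand, 5 long intervals lay over an interval of another gene, namely APITD1-CORT, ISY1-RAB43, KIAA0408, RAB43 and SNURF, and their reads cannot be assigned to 1 gene.

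Library totals ran from 24670716 to 42190854 reads. The coding genes held 12020461 to 20886783 reads and 807352 to 2034548 T>C reads per library with the PladB libraries at 807352 to 1147229 T>C reads and the others at 1125500 to 2034548. Long intervals took 6.66% of coding reads and 7.63% of coding T>C reads. Their median was 318.2 reads per library, against 17 in the reference. No read was seen in 77 of them and no T>C read in 172. Genes that define prostate luminal cells were present in every library, among them FOXA1 at 429.4 to 887.8 CPM (reads scaled to library depth), HOXB13 at 182.8 to 308.4 and KRT8 at 325.3 to 573.3. The immune markers CD3E and LYZ, the endothelial markers CDH5, VWF and KDR, and the fibroblast marker COL1A2 were at 0 in all 12.

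Long intervals carried a larger labelled share than short ones in each library, and the gap was smaller after PladB. Summed over the long intervals, the labelled share was 11.48%, 10.31% and 10.99% in the DMSO libraries, 10.97%, 10.20% and 10.97% with WX-02-23, 10.7%, 9.88% and 10.3% with WX-02-43, and 6.02%, 5.73% and 5.57% with PladB. The 3 PladB libraries lay below all 9 others, which overlapped. In the reference the means were 6.29%, 6.61%, 6.32% and 4.25% in the same order (SD 0.295 in DMSO and 0.175 in PladB, n = 3). The ratio of the long share to the short share was 1.72 to 1.76 in DMSO, 1.58 to 1.66 with the WX compounds and 1.34 to 1.39 with PladB. Reads in long intervals covered more T positions, 25.4 per read against 20.8 in DMSO. Converted T as a percent of covered T, which allows for that count, was 0.808% in long and 0.455% in short intervals in DMSO, and 0.328% and 0.242% with PladB. These traits were not particular to long intervals. In DMSO, intervals of 1000 to below 2000 and of 2000 to below 5000 bases had summed labelled shares of 11.51% and 11.54%. The mean in long ones was 10.93%. Those 2 classes covered 26.0 and 26.6 T positions per read, with converted T at 0.8615% and 0.833%. From 500 to below 1000 bases the share was 10.26%, with 25.6 T positions per read.

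**Figure D1:**
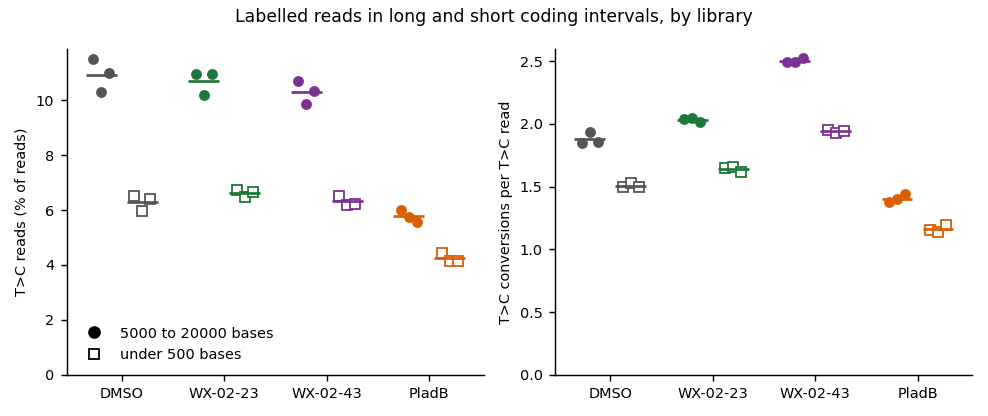
Labelled share in percent of reads (left) and conversions per T>C read (right) for each of the 12 libraries, summed over long intervals (filled circles) and short reference intervals (open squares), with horizontal lines for group means. The PladB libraries are lowest in both panels for both lengths, and WX-02-43 is highest in conversions per T>C read.

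Labelled shares per gene were higher in longer classes up to 2000 bases, and the next class was close to the long intervals. Over the 743 long intervals with a mean of at least 100 reads, the median gene had a labelled share of 11.29% in DMSO (quartiles 7.036% and 17.679%). The median of 2534 genes with intervals of 2000 to below 5000 bases was 11.431%. The medians were 9.667% from 1000 to below 2000 bases, 8.723% from 500 to below 1000 and 6.011% over the 2585 reference genes. Continuous, intron-spanning and unmatched long intervals had DMSO medians of 11.49%, 12.315% and 10.495%. After PladB the median was 4.673% in long intervals and 2.868% in the reference, and with WX-02-23 and WX-02-43 the long intervals had 11.407% and 10.507%. These are descriptions of the class with no test.

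The 6 long intervals with most T>C reads in DMSO differed in labelled share. ZBTB10, a zinc finger transcription factor, had 2617, 2419 and 2190 CPM of T>C reads in DMSO and a labelled share of 26.4% ± 1.93 (SD, n = 3). NUCKS1, a nuclear DNA-binding phosphoprotein, had 2018, 1455 and 1799 CPM of T>C reads, and its labelled share was 7.23% ± 0.709. SERBP1, an RNA-binding protein of ribosomes, had 11.5% ± 2.29, NFIX and NFIC, transcription factors of the nuclear factor I family, had 10.9% ± 1.72 and 17.9% ± 0.507, and the ribosomal protein gene RPL34 had 10.6% ± 2.25. The DMSO labelled shares of ZBTB10 lay above those of the other 5 in each of the 3 libraries. Throughout, CPM of T>C reads are relative to the T>C reads of the coding table after TMM scaling, and CPM of all reads likewise to all its reads. They compare libraries, not genes of different length.

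After PladB, T>C reads fell in 85 long intervals and rose in 20, of 811 with enough T>C reads to test (edgeR quasi-likelihood, Benjamini-Hochberg adjusted p under 0.05 over all 10393 coding genes tested). Of all genes tested, 10.7% were called, 4.73% higher and 5.94% lower, and for long intervals these shares were 12.9%, 2.47% and 10.5%. The median log2 change over the 811 was -0.78, against -0.37 over all genes tested and 0.01 over 2694 reference genes, where 204 rose and 67 fell. No T>C read was seen in PladB in 88 of the 811 and in DMSO in 12. With a bound in place of the fitted change where 1 group had none and the other more than 3, the median of long intervals was -0.773. Medians moved with length, from 0.005 under 500 bases through -0.263, -0.494 and -0.584 to -0.784 for long intervals. Among long intervals alone they were -0.791, -0.841 and -0.641 below 7000, from 7000 to below 10000 and from 10000 bases up.

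These changes are relative to the typical T>C read of each library, and the labelled share of all coding genes was 9.41% in DMSO and 5.43% with PladB. Scaled to all reads instead, the median of all genes moved by -0.794, and 5 long intervals were called higher and 214 lower. Without TMM it moved by -0.263, with 11 called higher and 118 lower. The share of calls that were higher was thus 19.05%, 2.28% and 8.53% under the 3 scalings. Continuous long intervals had 59 lower and 9 higher of 442, with a median of -0.845. Intron-spanning ones had 7 lower and 4 higher of 146, with a median of -0.409, and the difference between these groups was not tested.

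**Figure D2:**
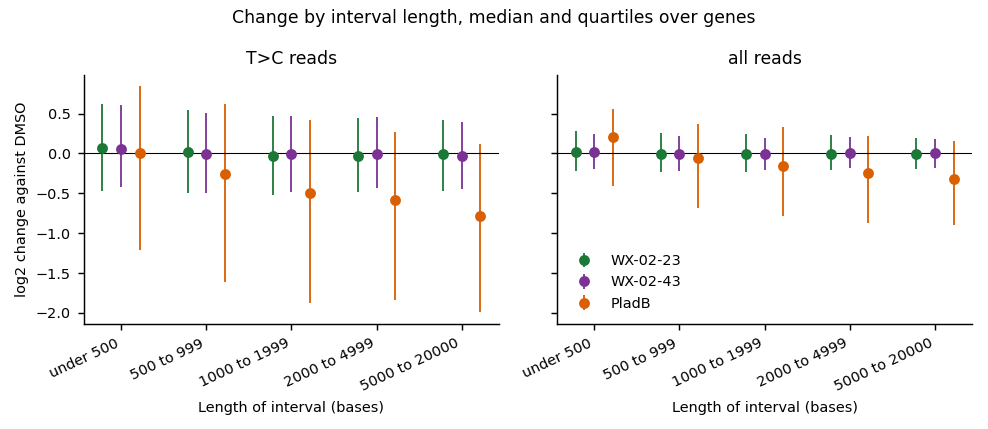
Median log2 change against DMSO with quartiles over genes, in T>C reads (left) and all reads (right), by length of the interval in bases, for the 3 treatments, which share the DMSO libraries. PladB medians fall from 0.005 to -0.784 in T>C reads and from 0.208 to -0.322 in all reads, while those of both WX compounds stay near 0.

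In 19 of the 85 that fell, no T>C read was found in any PladB library, so only a lower bound of the change can be given, from a floor of 3 reads over the group, which covers counting error only. The bounds ran from at least 10.6-fold to at least 74.6-fold lower. CFLAR, an inhibitor of caspase-8 in death receptor signalling, had 89.8, 139 and 54.3 CPM in DMSO and 0 in PladB, and was at least 74.6-fold lower (adjusted p = 9.283e-07, edgeR). Its level in all reads fell as well, from 67.2 ± 13.9 to 34.5 ± 6.04 CPM. RNF24, a membrane RING finger protein of the ubiquitin system, had 88.6, 58.5 and 52.4 CPM in DMSO and 0 in PladB, at least 54.4-fold lower. MKL2, a coactivator of serum response factor, had 17.8, 60.6 and 125 CPM in DMSO and 0 in PladB, and was at least 53.8-fold lower. RFX3, AGAP1 and NR6A1 were at least 45.7-, 41.1- and 39.6-fold lower. Single libraries carried much of some of these levels. NR6A1, an orphan nuclear receptor, had 53.5, 0.722 and 86.9 CPM in DMSO, and its labelled share there ran from 1.515% to 91.28%.

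SRRM4, a splicing regulator of neuronal microexons, was singled out after its values were seen because its adjusted p was among the lowest of the long intervals (4.279e-15, edgeR). It had 604, 498 and 531 T>C reads in the DMSO libraries, 653, 290 and 590 with WX-02-23, 611, 324 and 513 with WX-02-43, and 2, 0 and 1 with PladB. Its reads in all fell less, from 124 ± 8.41 to 25.2 ± 4.31 CPM, a log2 change of -2.29. The 3 PladB libraries lay far below the 9 others in both measures.

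Among the 20 that rose, CREBZF had the largest fitted change. This bZIP transcription factor had 298, 194 and 145 CPM of T>C reads in DMSO and 692, 870 and 1065 in PladB, and the groups did not overlap (log2 change 2.05 ± 0.26 SE, adjusted p = 3.296e-07, edgeR). In all reads it rose from 57.6 ± 12.3 to 261 ± 11.4 CPM. GTF3C4, a subunit of the RNA polymerase III factor TFIIIC, had 122, 214 and 195 CPM in DMSO and 536, 391 and 795 in PladB (1.70 ± 0.32, adjusted p = 2.208e-04, edgeR). TMEM59, a membrane protein of the Golgi, had 137, 83.0 and 62.0 CPM in DMSO and 265, 281 and 314 in PladB (1.61 ± 0.39, adjusted p = 0.00439, and 0.153 scaled to all reads, edgeR). EPM2AIP1, RPL34 and SNURF rose by 1.69, 1.68 and 1.92, with the reserve for SNURF given above. In RPL34, 94.1% to 96.5% of the reads of the 5272-base interval lay in a nested row of 158 bases, so its values are largely those of a short 3′ UTR. It also had fewer conversions than T>C reads in most libraries, 0.973, 0.922 and 0.993 per T>C read in DMSO and 0.948, 0.925 and 0.926 in PladB.

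The most abundant long intervals that rose did so by less, and their direction depends on the scaling. SERBP1 had 1183, 976 and 1547 CPM of T>C reads in DMSO and 2409, 2247 and 2510 in PladB (0.95 ± 0.15, adjusted p = 2.000e-05, edgeR). NUCKS1 had 2018, 1455 and 1799 in DMSO and 2656, 2268 and 2130 in PladB (0.42 ± 0.14, adjusted p = 0.0421). PTBP3, a polypyrimidine tract-binding protein, had 884, 883 and 831 in DMSO and 1379, 1328 and 1474 in PladB (0.69 ± 0.16, adjusted p = 0.00349), and NFIX rose by 0.52 ± 0.15 (adjusted p = 0.0193). In each of these 4 the PladB libraries lay above all DMSO libraries. The labelled shares of NUCKS1 and NFIX were nevertheless called lower after PladB. With each class of read scaled to its own total, those shares did not pass (adjusted p = 0.882 and 0.774, edgeR). Scaled to all reads, the log2 change was -0.377 in NUCKS1, -0.274 in NFIX and -0.11 in PTBP3, and SERBP1 kept its direction but not its call (adjusted p = 0.531, edgeR). Without TMM the adjusted p was 0.498 in NUCKS1, 0.269 in NFIX and 0.0800 in PTBP3, and in NUCKS1 it was 0.0908 with DESeq2 size factors and 0.0730 with its coding rows summed. Of the reads of SERBP1, 11.26% mapped to more than 1 place. Leaving out DMSO replicate 2, DMSO replicate 3 or PladB replicate 1 ended the call of NUCKS1 (adjusted p 0.0716 to 0.225), and leaving out DMSO replicate 2 or PladB replicate 1 that of NFIX (0.0651 to 0.0896).

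**Figure D3:**
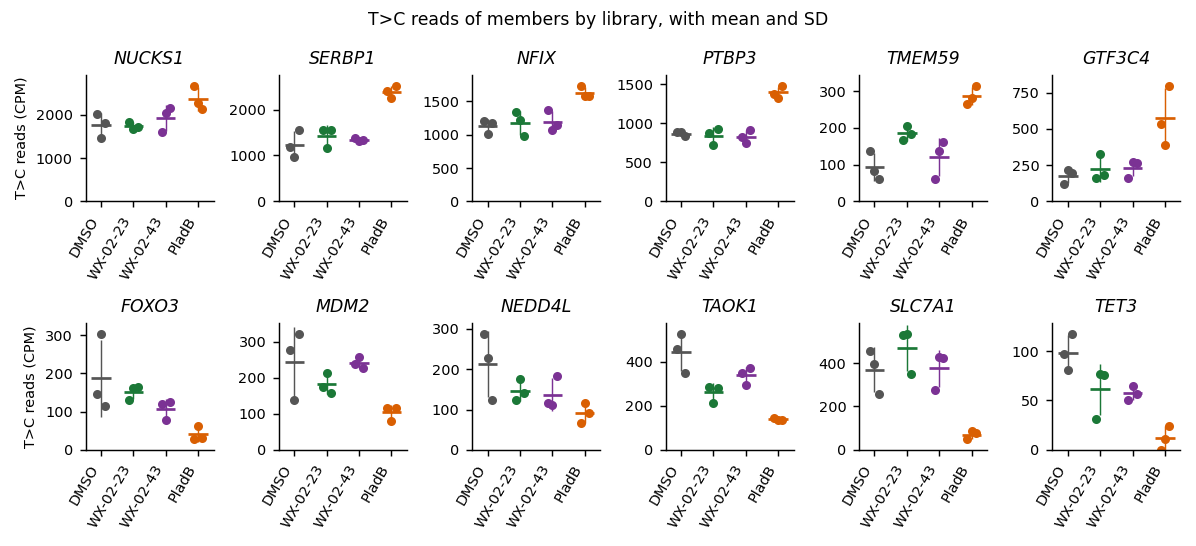
T>C reads in CPM of T>C reads for 12 long intervals in each library (points), with group means (horizontal lines) and SD (vertical lines). The upper row shows genes called higher after PladB and the lower row genes called lower, for example SERBP1 from 976 to 1547 in DMSO and 2247 to 2510 in PladB.

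In all reads, which include RNA made before the treatment, 240 long intervals fell and 58 rose after PladB, of 932 tested. Over all 12944 coding genes tested 29.9% were called, 13.6% higher and 16.3% lower. The long intervals stood at 6.22% higher and 25.8% lower, with a median of -0.322 against -0.069 over all and 0.208 in the reference. Without TMM, 20 were higher and 343 lower, and the share of calls that were higher went from 19.46% to 5.51%, with the median of all genes moved by -0.255. Of the 85 that fell in T>C reads 64 also fell in all reads, which is 64 of the 240 there. Of the 20 that rose in T>C reads 18 also rose in all reads, of 58 there. The 2 measures share reads, since T>C reads are counted in both.

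The largest falls in all reads were in rarely read genes. SLFN5 and ZNF81 had no read in any PladB library and were at least 43.8- and 27.8-fold lower, yet SLFN5 had no more than 4.21 CPM in DMSO and ZNF81 no more than 3.36. CREB5, a cAMP response element-binding factor, had 16.7, 19.0 and 9.10 CPM in DMSO and 1.88, 0 and 1.19 in PladB (-3.82 ± 0.57, adjusted p = 1.634e-06, edgeR). DENND5B, a regulator of Rab GTPases, fell by 3.16 ± 0.56 on the log2 scale. KCNMA1, a potassium channel, was called lower in the kept row at a mean of 1.88 CPM in DMSO, and its change was 0.678 when all coding rows of the gene were summed. Its adjusted p was 0.0743 to 0.120 without DMSO replicate 3, PladB replicate 2 or PladB replicate 3.

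Some long intervals rose in all reads while their T>C reads did not pass. TET2, which oxidises methylated cytosine, had 7.86, 0 and 3.73 CPM of all reads in DMSO and 28.6, 33.8 and 19.7 in PladB (2.82 ± 0.63, adjusted p = 4.944e-04, edgeR). Its T>C reads were 55.3, 0 and 32.0 CPM in DMSO and 27.5, 19.1 and 42.6 in PladB, and these overlapped (0.03 ± 1.00). KLF7, a Krüppel-like factor, had 50.6, 38.2 and 39.8 CPM of all reads in DMSO and 107.5, 96.2 and 112 in PladB (1.29 ± 0.18), with a change in T>C reads of -0.03 ± 0.37. The labelled share of KLF7 fell from 44.2%, 26.0% and 51.2% to 9.90%, 5.39% and 12.1% (adjusted p = 0.0120 for the log2 odds, and 0.0534 to 0.0566 without DMSO replicate 1 or DMSO replicate 3).

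**Figure D4:**
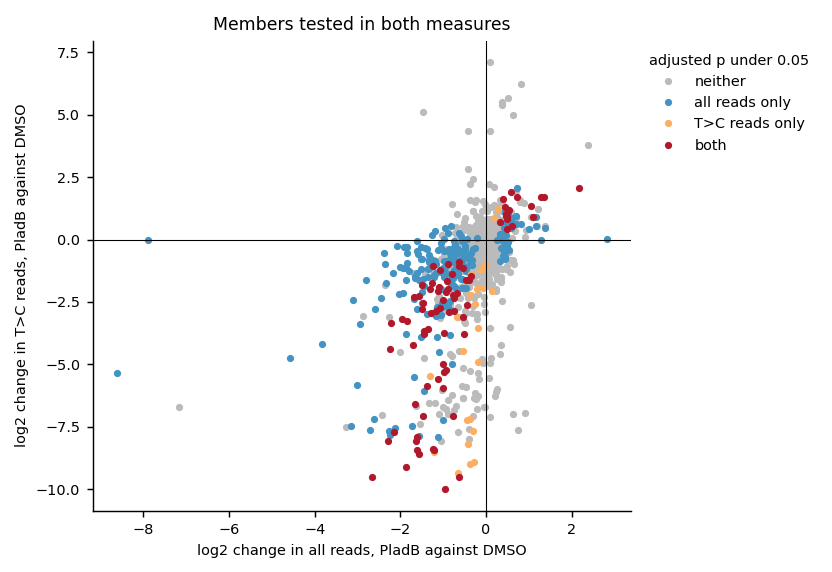
Log2 change after PladB in T>C reads (vertical) against all reads (horizontal) for the 811 long intervals tested in both measures, coloured by which measure passed adjusted p under 0.05. Both passed in 82, T>C reads alone in 23, all reads alone in 214 and neither in 492, and most points lie below and left of 0.

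The labelled share fell in 127 of 811 long intervals after PladB and rose in 0. This test sets T>C reads against the other reads of the same interval and is absolute, so the fall of the whole library is part of it, and 11.2% of all coding genes were called, 0.0289% higher and 11.2% lower. The median change in the log2 odds was -1.564 in long intervals and -1.300 over all. With each class of read scaled to its own total, which removes the typical change, the median of all genes moved by 0.805 and 30 long intervals were called, 2 higher and 28 lower. Under that scaling the labelled shares of CELF1, DDX6, MDM2 and ZBTB10 did not pass (adjusted p 0.0844 to 0.990), though they did in the test above. Leaving out DMSO replicate 1 gave 64 calls, and so did leaving out DMSO replicate 3. Of the 85 long intervals that fell in T>C reads, 61 were also called lower in labelled share. Of the 20 that rose in T>C reads, 3 were called lower in labelled share. Both tests use the same T>C reads, so overlap between their calls is partly built in.

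Counts in the lists by role that follow stand against 5.94% lower and 4.73% higher of all coding genes tested in T>C reads, and 16.3% lower and 13.6% higher in all reads. The lists were drawn up by gene family or symbol and are partial, so genes of a role outside its list are not counted. Transcription factors formed the largest list among the long intervals by role, with 83 members of which 76 were tested in T>C reads. Within the list 13 fell after PladB, 4 rose and 59 did not pass, with a median of -0.969, and in all reads 33 of 81 fell and 9 rose. The transcription factors RFX3 and KLF13 were also called lower in T>C reads, with 0 in PladB, and are not in this list. FOXO3, a forkhead factor of insulin signalling, had 145, 302 and 115 CPM of T>C reads in DMSO and 27.5, 61.4 and 31.2 in PladB (-2.23 ± 0.49, adjusted p = 0.00163, edgeR). ONECUT2, a homeobox factor, had 352, 367 and 337 in DMSO and 88.4, 101 and 48.2 in PladB (-2.15 ± 0.33). Neither gene had a PladB library that reached the lowest DMSO library. ZBTB10 was at 2409 ± 214 and 2967 ± 461 CPM and did not pass (adjusted p = 0.0916), while its labelled share fell.

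Of 36 genes in the list of receptors, kinases and their regulators, 31 were tested in T>C reads, of which 5 fell and 0 rose, with a median of -1.209. The receptor IL17RD, chosen after its values were seen, is not in this list. It was called lower, with 61 T>C reads over the DMSO libraries and 0 in PladB. TAOK1, a kinase of the stress-activated MAP kinase cascade, had 458, 525 and 350.3 CPM in DMSO and 143, 135 and 138 in PladB (-1.68 ± 0.27, adjusted p = 3.304e-05, edgeR). PIK3CA, the catalytic subunit of PI3-kinase alpha, had 54, 45 and 91 T>C reads in DMSO and 2, 1 and 0 in PladB (adjusted p = 0.00692). CSNK1G1, a casein kinase, fell by 2.32 ± 0.58. In all reads 13 of 34 fell and 1, DYRK1A, rose.

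Of 40 genes of the ubiquitin system, 33 were tested in T>C reads, of which 6 fell and 1 rose, with a median of -0.94. MDM2, the ubiquitin ligase of p53, had 276, 138 and 320.2 CPM in DMSO and 117, 80.6 and 116 in PladB (-1.22 ± 0.35, adjusted p = 0.0172, edgeR). Its labelled share went from 14.7% ± 4.07 to 4.02% ± 0.567, while its reads in all did not pass (-0.12 ± 0.13). NEDD4L, a HECT ubiquitin ligase, fell at the threshold (-1.22 ± 0.41, adjusted p = 0.0496). Without DMSO replicate 1, DMSO replicate 3 or PladB replicate 2 the adjusted p of MDM2 was 0.0506 to 0.132, and 4 single libraries (DMSO replicates 1 and 2, PladB replicates 1 and 3) ended the call of NEDD4L in T>C reads (0.0882 to 0.263), as did summing its coding rows (0.0764). XIAP, an inhibitor of caspases with a RING domain, was at 203 ± 25.4 and 171 ± 60.4 CPM in T>C reads (adjusted p = 0.742).

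Of 51 transporters and channels only 26 had enough T>C reads to test, of which 6 fell and 0 rose, with a median of -1.42. SLC7A1, an importer of cationic amino acids, had 458.5, 397 and 257 CPM in DMSO and 48.8, 87.4 and 75.2 in PladB (-2.40 ± 0.30, adjusted p = 2.727e-07, edgeR). SLC7A11, the cystine and glutamate exchanger, had 136, 274 and 207 in DMSO and 50.8, 0 and 32.6 in PladB (-2.85 ± 0.52). PladB libraries lay below all DMSO libraries in both. SLC30A7, a zinc transporter of the Golgi, fell by 1.98 ± 0.58 (adjusted p = 0.0214, and 0.0572 to 0.0696 without DMSO replicate 1, DMSO replicate 2 or PladB replicate 3). SLC38A1, a glutamine transporter, did not pass (-0.05 ± 0.26).

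The list of RNA-binding proteins and the microRNA pathway had 24 members, of which 22 were tested in T>C reads. Of these 6 fell and 0 rose (5.94% of all coding genes fell), with a median of -0.958: CNOT6L, LARP4B, PAPD5, RBFOX2, TNRC6B and ZC3H6. SERBP1 and PTBP3, which were called higher in T>C reads as given above, are not in this list. In all reads 12 of 23 in the list fell, against 16.3% of all coding genes, and 0 rose. The 4 of the list with most T>C reads did not pass in T>C reads. CELF1, MBNL1, NUFIP2 and DDX6 had changes of -0.37 ± 0.23, 0.36 ± 0.20, 0.44 ± 0.20 and -0.46 ± 0.28. The labelled share fell in CELF1 and DDX6, from 9.09% ± 1.46 to 4.97% ± 0.425 and from 19.6% ± 5.56 to 6.995% ± 1.28. The call of CELF1 ended without DMSO replicate 1 (adjusted p = 0.0870), and that of DDX6 without DMSO replicate 1 or PladB replicate 3 (0.0527 to 0.0790).

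Chromatin regulators had 12 members, of which 3 of 11 tested fell in T>C reads and 0 rose: KDM7A, SETD7 and TET3. TET3 had 96.9, 80.9 and 117 CPM in DMSO and 0, 10.9 and 24.1 in PladB (-3.10 ± 0.86, adjusted p = 0.0144, edgeR). CBX5, the heterochromatin protein HP1 alpha, was at 160.4 ± 32.0 and 164 ± 19.7 CPM (0.04 ± 0.34). In all reads TBL1XR1 and TET2 rose and BRWD1 and PHC3 fell. Of 56 genes in the list of small GTPases and vesicle traffic, 3 of 51 fell in T>C reads, DENND1B, RAB11FIP4 and RAP1GAP2, and 0 rose, with a median of -0.586. Within the list this share is near the 5.94% of all coding genes that fell. AGAP1, a GTPase-activating protein that fell as given above, is not in this list. In all reads 15 of 54 of this list fell and 1 rose.

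Few long intervals passed the test in amount after WX-02-23 or WX-02-43. In T>C reads 0 of 811 passed after WX-02-23 (43 at an unadjusted p under 0.05, and 2 by DESeq2), where 0.231% of all genes were called. After WX-02-43 0 passed (28 at an unadjusted p under 0.05, and 1 by DESeq2), where 0.0962% of all were called. In all reads 1 rose and 2 fell of 932 after WX-02-23, where 0.703% of all genes were called, and 1 rose after WX-02-43, where 0.162% were called. In labelled share 0 passed after either compound (33 and 19 at an unadjusted p under 0.05), where 0.00962% and 0% of all genes were called. These comparisons and the PladB comparison share the DMSO libraries.

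The single gene that rose was the same after each WX compound. SLC7A11 had 128, 132 and 107 CPM of all reads in DMSO, 175, 173 and 185 with WX-02-23, and 187, 183 and 182.5 with WX-02-43, and neither treated group overlapped DMSO (0.54 ± 0.13 and 0.59 ± 0.13, adjusted p = 0.0381 and 0.0397, edgeR). With PladB it was at 53.2, 64.4 and 45.7. FIGNL1, an AAA ATPase of DNA repair, had 121, 124 and 114 CPM in DMSO and 80.2, 88.9 and 69.1 with WX-02-23 (-0.59 ± 0.14, adjusted p = 0.0361). ONECUT2 had 235, 179 and 203 in DMSO and 136, 147 and 143 with WX-02-23 (-0.54 ± 0.13, adjusted p = 0.0257). Each call was lost when single libraries were left out: 5 of 6 libraries for SLC7A11 in each comparison (all but DMSO replicate 2), all 6 for FIGNL1, and 4 of 6 for ONECUT2 (all but DMSO replicates 2 and 3), with adjusted p up to 0.210, 0.244, 0.275 and 0.182. With all coding rows of a gene summed, the adjusted p of SLC7A11 was 0.0792 and 0.106, that of FIGNL1 0.0714 and that of ONECUT2 0.0631.

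The 2 WX compounds, given at the same dose for the same time, were compared directly in 4 measures, with p-values adjusted over all coding genes tested in each. In T>C reads 0 of 811 long intervals differed (20 at an unadjusted p under 0.05, 0 by DESeq2), where 0.0481% of all genes were called. In all reads 0 of 932 differed (52 unadjusted), where 0.155% were called, and in labelled share 0 of 811 (14 unadjusted), where 0% were called. A missed threshold does not show that they act alike. The 95% interval of the difference lay within 2-fold in either direction for 600 of 932 long intervals in all reads, but for only 88 of 811 in T>C reads and 57 of 811 in labelled share. For NUCKS1 the log2 difference, WX-02-23 less WX-02-43, was -0.15 in T>C reads (interval -0.43 to 0.13) and -0.06 in all reads (-0.20 to 0.09).

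Conversions per T>C read did differ between the WX compounds. Summed over long intervals they were 1.84, 1.93 and 1.85 in DMSO, 2.04, 2.05 and 2.01 with WX-02-23, 2.49, 2.50 and 2.52 with WX-02-43, and 1.37, 1.40 and 1.44 with PladB, and the 4 groups did not overlap. The reference had the same order at a lower level, with means of 1.506, 1.641, 1.940 and 1.162. The number rose in 96 and fell in 2 of 662 long intervals after WX-02-43 (limma, adjusted p under 0.05), where 13.6% of all 7929 genes tested were called, 13.5% higher and 0.177% lower. The median log2 change was 0.41 in long intervals and 0.406 over all genes tested, so this rise was not particular to long intervals. After WX-02-23 0 passed (86 at an unadjusted p under 0.05), where 0.139% were called, and after PladB 0 rose and 7 fell, where 0.807% were called. Between WX-02-23 and WX-02-43, 24 were lower with WX-02-23 and 1 was higher, where 3.59% of all were called, 3.44% lower and 0.151% higher. The medians here were likewise close, at -0.281 in long intervals and -0.273 over all. The pair's interval lay within 2-fold for 369 of 662.

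These counts depend on how libraries with few T>C reads are weighted. Each value was weighted by its number of T>C reads. Without weights, as in the design first written, 32 passed after WX-02-43, 29 after PladB and 6 between the pair. Leaving out DMSO replicate 1 gave 43 after WX-02-43. Between the pair, leaving out WX-02-23 replicate 1, WX-02-23 replicate 3 or WX-02-43 replicate 2 gave 13, 9 and 13. After PladB it gave 3 and 4 without DMSO replicates 2 and 3, and 3, 3 and 2 without PladB replicates 1, 2 and 3. ZBTB10 had 0.54 ± 0.05 more conversions per T>C read on the log2 scale with WX-02-43 than with DMSO (adjusted p = 4.659e-05, limma) and differed by -0.34 ± 0.05 between WX-02-23 and WX-02-43. MGAT5, a Golgi glycosyltransferase, had 5.03, 3.68 and 3.94 with WX-02-43 and 1.09, 1 and 1 with WX-02-23, from 1 T>C read in WX-02-23 replicate 3, and its difference between the compounds had an adjusted p of 0.0510 without WX-02-23 replicate 2. FOXK1 and ZC3H6 were the 2 that fell after WX-02-43, by 0.71 ± 0.21 and 1.47 ± 0.31 on the log2 scale. The call of FOXK1 was lost without any of 5 libraries, all but WX-02-43 replicate 2 (adjusted p 0.0692 to 0.164), and without weights (0.117). SLC9A7, higher with WX-02-23 than with WX-02-43, had 47, 6 and 2 T>C reads against 1, 15 and 8, and its adjusted p was 0.0926 without WX-02-43 replicate 2.

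NUCKS1 was among the 7 that fell in conversions after PladB, from 1.49, 1.75 and 1.85 to 1.06, 1.06 and 1.1 (-0.64 ± 0.08, adjusted p = 0.00257, limma), with no overlap. PTBP3 and MBNL1, which also passed, lost their calls without any 1 of the 6 libraries (adjusted p 0.0532 to 0.121 and 0.0534 to 0.165). The deposited numbers of conversions can be lower than those of T>C reads. This held in 74 of 7131 values of long intervals with at least 20 T>C reads in a library, over 42 intervals, among them FAN1 at 0.548, 1.00 and 0.564 in DMSO.

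A row that begins at the same position and is at least 1000 bases shorter was present for 47 long intervals, 30 of them with a mean of at least 100 reads. Summed over these 30, the nested row held 68.6%, 67.9% and 71.4% of reads in DMSO and 79.0%, 78.5% and 78.7% with PladB. The difference in the sum was not seen without RPS3 and RPL34, ribosomal protein genes with many reads. Without them the shares were 33.3%, 34.2% and 33.0% in DMSO and 33.4%, 31.6% and 32.1% with PladB, and the groups overlapped. Gene by gene, the nested share was higher in all PladB than in all DMSO libraries in 7 of 30 long intervals and lower in 1, where 16.7% and 2.08% of all 48 coding genes with such a row were (the 30 are among the 48). After WX-02-23 it was higher in 0 and lower in 1, where 2.08% of the 48 were higher and 2.08% lower, and after WX-02-43 higher in 0 and lower in 1, where 4.17% were higher and 4.17% lower. In CST3, cystatin C, chosen after its values were seen, a nested row of 259 bases held 94.7%, 95.9% and 97.2% of the reads of the 6019-base interval in DMSO and 99.0%, 99.0% and 98.7% with PladB, which lay above. With WX-02-23 it held 98.1%, 96.7% and 93.8%, and with WX-02-43 97.8%, 95.9% and 98.9%, so that 1 WX-02-43 library fell in the range of PladB.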

How the data were processed

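SLAM-seq libraries of 22Rv1 cells, 3 in each of 4 groups, were read with a QuantSeq 3′ kit after alkylation with iodoacetamide. Per the submitters' processing notes, the authors used slamdunk 0.4.3 with hg19, and per the file headers and labels the intervals are curated RefSeq 3′ UTRs and spike-ins. The deposited counts give, per interval and library, all reads, T>C reads (at least 1 conversion), conversions and covered T positions. The deposited CPM per interval served only to recover library totals and the fraction of converted T that the authors deposited was not used. Reads have no molecular identifiers, so sums rest on reads, not molecules.

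Values were summed per library over each class. T>C reads and all reads were fitted with edgeR 4.0.16 (TMM, filterByExpr, quasi-likelihood), and the labelled share as T>C against other reads with a term for each library. Conversions were fitted as log2 of (conversions + 1) over (T>C reads + 1) with limma 3.58.1, for genes with a mean of at least 20 T>C reads. Precision weights equal to the T>C reads were added because the unweighted fit made false calls at low depth in simulated data. This departs from the design first written. Fits ran in R 4.3.3 over all coding genes with Benjamini-Hochberg adjustment, and a gene was called at adjusted p under 0.05. DESeq2 1.42.0, other scalings and filters, a replicate block and leaving out each library were alternatives. No replicate number was used for pairing: of 18 pairs of libraries with the same number, 0 had deviations correlated above 0.1.

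Interval structure came from the lengths of GENCODE release 29 transcripts, since no hg19 genome was used here. The members, the lists by role and the tests were chosen with earlier results of these data known. Genes named are those with the largest changes among calls (up to 6 in each direction per comparison and measure), the 6 with most T>C reads in DMSO, the 5 longest, those at the limits of length, and up to 4 per role list with most T>C reads. Members of a role list that passed the test are named too, and any other gene is said to have been chosen after its values were seen. Some genes that this rule names are not reported here.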

Additional observations from a re-analysis of the deposited data

How the results depend on the processing

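Of 161 calls of named genes, 87 held without any 1 library and 74 were lost without at least 1, and 0 changed sign there. Under the other alternatives 727 of 805 values of named genes kept direction and side of the threshold, 73 were weaker and 5 reversed. With T>C reads scaled to all reads, the log2 change after PladB was -0.377 in NUCKS1, -0.274 in NFIX and -0.11 in PTBP3. KCNMA1 was at 0.678 in all reads with coding rows summed, and the labelled share of NFIC at 0.027 with each class of read scaled to its own total. The cause was not tested.

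Counts of long intervals called moved as follows. In T>C reads DESeq2 called 178 after PladB, 2 after WX-02-23 and 1 after WX-02-43, against 105, 0 and 0, and scaling to all reads gave 219 after PladB. In all reads after WX-02-23, in place of 3, DESeq2 called 8, no filter 5, summed rows 0 and leaving out 1 library 0 to 2. After WX-02-43, in place of 1, no filter gave 2, summed rows 0 and leaving out 1 library 0 to 1. In labelled share after PladB, in place of 127, scaling each class to its own total gave 30 and leaving out 1 library 64 to 139. In conversions after PladB, in place of 7, a mean of at least 50 T>C reads gave 12, no weights 29 and leaving out 1 library 2 to 6. After WX-02-43, in place of 98, these were 32 without weights and 43 to 75. Between the WX compounds, in place of 25, they were 6 without weights and 9 to 24. The fit without weights was the one in the design first written. Its counts were added beside the weighted ones after seeing the data. Leaving out 1 library gave 77 to 120 in T>C reads and 253 to 291 in all reads after PladB, and 56 of the 105 and 196 of the 298 were called each time.

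With the replicate number as a block, calls after PladB were 107 in T>C reads, 296 in all reads, 112 in labelled share and 8 in conversions. They were 101 in conversions after WX-02-43, 23 between the WX compounds and 4 in all reads after WX-02-23. Libraries shared only a number, so this is no paired analysis. Depth limits the tests on T>C reads, since 88 of the long intervals tested had none after PladB.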
